A study of Mus musculus with 41 samples.

Results

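A set of 20 mouse hippocampal expression arrays was chosen by their own expression values from a series of 41. A score was computed on 40 arrays as the mean log2 signal of 6 genes that glucocorticoid hormone is known to raise: Sgk1, Fkbp5, Tsc22d3, Klf9, Fam107a and Pdk4. The 10 arrays with the highest score are called the high-score arrays and the 10 with the lowest the low-score arrays. The 20 arrays between them, the middle arrays, entered neither set, and medium cognition sample 9 was left out of the ranking by the rule. Every difference between the high-score and low-score arrays is therefore a description of arrays picked for it and carries no test. Tests were run on the middle arrays and on the behavioural classes of the mice, neither of which decided which arrays were set against each other.

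All mice were male C57BL/6J, an inbred strain, with no drug treatment or genetic change named in the labels. From 10 weeks of age they went through a long battery of behavioural tests, of which 5 measured memory and cognition, the last at 37 to 38 weeks. They were killed 1 month later for hippocampal RNA. The labels sort the mice by 2 rankings of general cognitive ability into high cognition (5 mice), medium cognition (12), low cognition (8), inconsistent cognition, where the rankings disagreed (14), and incomplete data (2), and each array is labelled as 1 mouse. The high-score arrays came from 3 mice of high, 3 of medium, 1 of low and 3 of inconsistent cognition. The low-score arrays came from 0 mice of high, 3 of medium, 1 of low and 6 of inconsistent cognition.

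Glucocorticoids, in the mouse mainly corticosterone, are released by the adrenal gland under the control of the brain and pituitary, follow a daily rhythm and rise with stress. In the cell they bind the glucocorticoid receptor, encoded by Nr3c1, and the mineralocorticoid receptor, encoded by Nr3c2, both of which the hippocampus holds in abundance. The bound receptor moves to the nucleus, where it can bind DNA as a dimer at a short palindrome, the glucocorticoid response element, and changes the transcription of nearby genes. No hormone level was measured on these mice in the values used here, so the score is a summary of 6 transcripts and not of the hormone.

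To show what such an element looks like beside the genes, RefSeq start-site windows (GRCm38.p6, 250 bases before to 50 after each annotated start) were searched for the palindrome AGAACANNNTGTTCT and for the shorter, looser GNACANNNTGTNC, each of which reads the same on both strands. All 6 score genes and 27 of the 32 listed glucocorticoid-responsive genes outside the score had a window. The palindrome lay in a window of 1 of the 6 score genes and 0 of the 27 listed genes. The looser letters lay in windows of 2 of the 6 and 3 of the 27. Sgk1 had 6 windows, 1 of them with the palindrome, and Fam107a had 3, 2 of them with the looser letters. The palindrome occurred in 3 of 32851 windows (0.00913%), 1 of which belongs to Sgk1 (chr10:21993640-21993939, plus strand), where it begins at -189 from the start. The looser letters occurred in 156 windows (0.475%), which include those of Fam107a (chr14:8309730-8310029, minus strand, at -118) and Mt1 (chr8:94178839-94179138, plus strand, at -94). The 3 windows are shown 5′ to 3′ along the gene, with the matched letters in capitals.
Sgk1: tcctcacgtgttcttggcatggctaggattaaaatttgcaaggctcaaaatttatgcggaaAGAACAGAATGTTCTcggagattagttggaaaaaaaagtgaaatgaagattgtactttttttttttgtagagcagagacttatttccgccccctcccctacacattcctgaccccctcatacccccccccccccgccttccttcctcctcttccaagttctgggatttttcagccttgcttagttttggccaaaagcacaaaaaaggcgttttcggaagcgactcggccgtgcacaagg
Fam107a: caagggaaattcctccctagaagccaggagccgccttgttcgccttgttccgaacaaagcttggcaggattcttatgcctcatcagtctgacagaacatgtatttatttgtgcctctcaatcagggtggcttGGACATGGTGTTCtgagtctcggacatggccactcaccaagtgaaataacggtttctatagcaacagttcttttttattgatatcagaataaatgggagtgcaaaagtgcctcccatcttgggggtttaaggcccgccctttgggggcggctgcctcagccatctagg
Mt1: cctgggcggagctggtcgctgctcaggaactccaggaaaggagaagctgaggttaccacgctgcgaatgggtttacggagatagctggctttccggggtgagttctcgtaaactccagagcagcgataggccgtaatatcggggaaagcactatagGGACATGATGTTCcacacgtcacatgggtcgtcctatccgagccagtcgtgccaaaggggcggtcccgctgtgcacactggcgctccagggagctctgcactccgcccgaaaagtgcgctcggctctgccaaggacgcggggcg
Sgk1 and Fam107a belong to the score, and Mt1, which encodes a metal-binding protein, to the list set against it. No window of Fkbp5, Tsc22d3, Klf9 or Pdk4 held the palindrome or the looser letters, which says only that they are not in these 300 bases.

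The scores lay between 10.13 and 10.42 (median 10.28) on the high-score arrays and between 9.59 and 9.84 (median 9.77) on the low-score arrays, on a scale of log2(intensity + 16) after quantile normalization. The edge of the high-score set was narrow, with 10.13 on the last array inside (medium cognition sample 12) and 10.12 on the first outside (incomplete data sample 2). At the lower edge the first array inside had 9.84 (medium cognition sample 2) and the last outside 9.85 (medium cognition sample 10). Medium cognition sample 9, had it been ranked, would have had a score of 9.82.

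The arrays also differed in ways that the score did not choose. By their 45 spike-in probe sets they fell into 3 groups of 8, 10 and 23 arrays, which no label names, and the high-score arrays lay 1, 4 and 5 in these groups against 4, 0 and 6 for the low-score arrays. Median intensity before normalization was 22.4 to 50.4 (median 42.5) on the high-score arrays and 25.8 to 47.0 (median 31.9) on the low-score arrays. The 3′ to 5′ log2 ratio of Gapdh probe sets, a sign of RNA integrity, was -0.54 to -0.43 (median -0.47) against -0.54 to -0.47 (median -0.49). That of beta-actin was 0.44 to 0.60 (median 0.52) against 0.44 to 0.67 (median 0.57). The sets overlapped on both, with the higher beta-actin ratios on low-score arrays. Choroid plexus genes were bright on 11 arrays, of which 0 were high-score arrays and 4 low-score arrays. The values below are therefore given also with the spike-in group as a block, within the largest spike-in group (5 high-score and 6 low-score arrays) or without the choroid-bright arrays where they differ.

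Tsc22d3, which encodes the anti-inflammatory leucine zipper protein GILZ, separated the sets most. It read 9.66 to 10.33 (median 10.12) on the high-score arrays and 8.94 to 9.35 (median 9.04) on the low-score arrays, without overlap, a difference of means of 0.97 on the log2 scale. It carried 30.1% of the variance of the score. Sgk1, a kinase that regulates ion channels, read 10.81 to 11.37 (median 11.12) against 10.05 to 10.89 (median 10.38), with 9 of 10 high-score arrays above every low-score array. Fkbp5, a chaperone that lowers the receptor's affinity for hormone, read 8.73 to 9.17 (median 8.96) against 8.22 to 8.70 (median 8.40), also without overlap.

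The other 3 score genes differed less. Fam107a, an actin-binding stress protein, differed by 0.31 without overlap, and Klf9, a transcription factor, by 0.32 with 9 of 10 high-score arrays above every low-score array. Pdk4, which holds back glucose oxidation in mitochondria, differed by 0.36 and overlapped most, with 4 of 10 high-score arrays above every low-score array. The sets were also drawn anew from the other 5 genes, as a description and not a test. They kept 9 or 10 of the high-score arrays and 8 to 10 of the low-score arrays. The left-out gene differed by 0.92 for Tsc22d3, 0.61 for Sgk1, 0.43 for Fkbp5, 0.29 for Klf9, 0.28 for Pdk4 and 0.27 for Fam107a. Of the other Tsc22d3 probe sets, which the score did not use, 1425281_a_at read 9.46 to 10.08 on the high-score arrays and 8.30 to 8.66 on the low-score arrays, a difference of 1.24. The other, 1425557_x_at, differed by 0.15. Klf9 differed by less at its other tested probe sets, from 0.07 to 0.27.

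**Figure D1:**
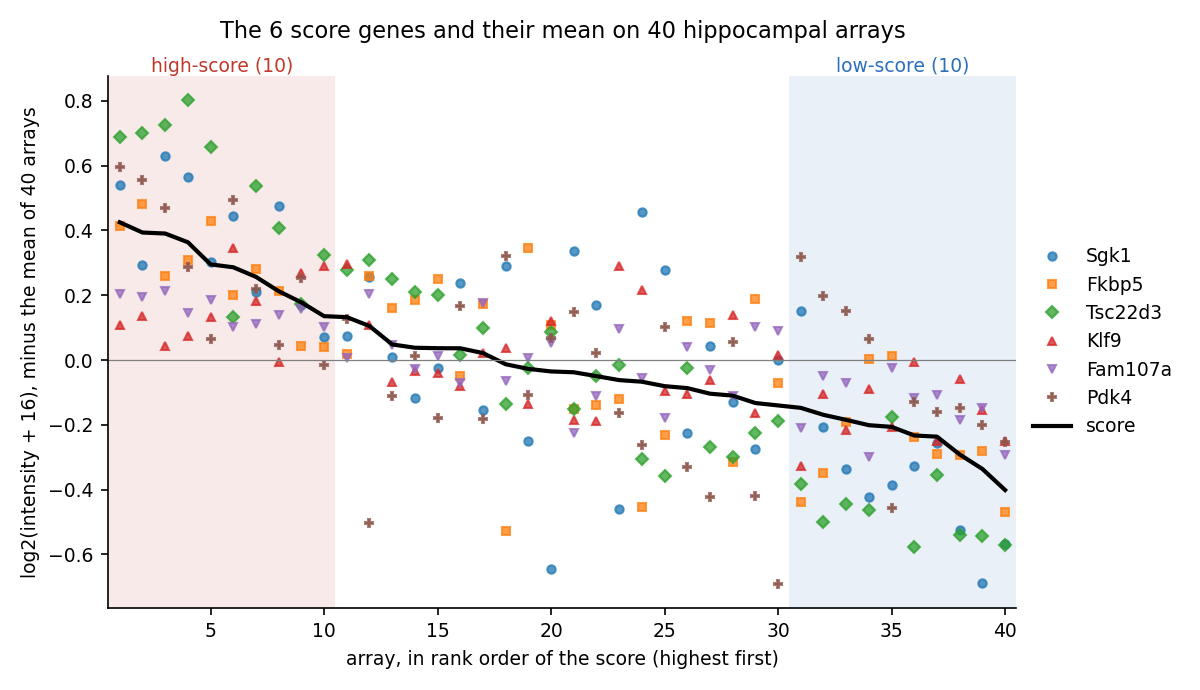
Level of each score gene (symbols) and their mean, the score (black line), on 40 arrays in rank order, as log2(intensity + 16) minus the gene's mean over the 40 arrays. The 10 high-score arrays (red field) lie above 0 for most genes and the 10 low-score arrays (blue field) below, while Sgk1, Fkbp5 and Pdk4 scatter widely among the 20 middle arrays.

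Across 22503 probe sets tested outside the score genes, 76 (0.338%) were higher on every high-score array than on any low-score array, and 44 (0.196%) were lower. Counted as genes at their brightest probe set, 52 of 11212 (0.464%) were higher and 28 (0.25%) lower without overlap. The differences of the 76 probe sets ran from 0.14 to 1.47 (median 0.36) and those of the 44 from -0.74 to -0.11 (median -0.33). With arrays only centred on their median in place of quantile normalization, the score was recomputed and the sets were drawn anew. Then 83 were higher and 1 lower without overlap, so the lower count was not kept. The part of normalization in this was not separated from that of the redrawn sets. With no normalization, and the score and sets drawn anew, all genes shifted by 0.65 between those sets. There, 60 of the 66 named genes with a difference below 0 turned above 0, of which 7 stood above that shift.

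The middle arrays, which neither set holds, gave slopes of the same sign for 71 of the 76 higher probe sets and 39 of the 44 lower ones. Of these slopes, 27 of 76 and 5 of 44 had an unadjusted p under 0.05 in the same direction, beside 5.32% of all 22503 probe sets in either direction. No slope outside the score genes passed limma with Benjamini-Hochberg adjustment over all probe sets, and 1197 had an unadjusted p under 0.05. A fit with a variance trend and robust moderation also called 0. Tsc22d3, which enters the score itself, had a slope of 2.37 ± 0.35 (SE) log2 per unit of score there, given as a description.

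Most glucocorticoid-responsive genes outside the score were higher where the score was high. Of the 32 on the list 29 were measured, 27 of them were higher on average on the high-score arrays, beside 49.3% of all genes, and 9 were higher without overlap, beside 0.464% of all genes. The median difference was 0.41, against 0.00 over all 11212 genes. It was 0.40 with the spike-in group as a block, 0.38 within the largest spike-in group and 0.38 without the choroid-bright arrays. The mean of the list read 8.17 to 8.40 (median 8.26) on the high-score arrays and 7.73 to 8.02 (median 7.88) on the low-score arrays, so that every high-score array stood above every low-score array.

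Plin4, Hif3a and Xdh had the largest differences of the list. Plin4, which coats lipid droplets, read 6.40 to 7.32 (median 7.13) on the high-score arrays and 4.74 to 6.08 (median 5.51) on the low-score arrays, a difference of 1.47 ± 0.14 (SE). Its signal was dim, and a larger added constant of 50 lowered the difference to 1.01. Xdh, the xanthine oxidoreductase of purine breakdown, read 6.06 to 6.54 (median 6.27) against 5.26 to 5.83 (median 5.55), a difference of 0.78 ± 0.07. Hif3a, a hypoxia-inducible factor subunit that limits its relatives, differed by 0.89 ± 0.10 without overlap. Txnip, which binds thioredoxin and restrains glucose uptake, differed by 0.43 without overlap.

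Gjb6, Mt2 and Mfsd2a came next in size. Gjb6, the astrocyte gap junction protein connexin 30, read 9.79 to 10.18 (median 9.99) on the high-score arrays and 9.18 to 9.51 (median 9.34) on the low-score arrays, a difference of 0.64 ± 0.05. Mertk, a receptor by which glia engulf debris, read 8.86 to 9.15 (median 9.02) against 8.40 to 8.72 (median 8.50), a difference of 0.51 ± 0.04. Mfsd2a, the lipid carrier of the blood-brain barrier, differed by 0.62. Mt2, a metallothionein, read 11.12 to 11.97 (median 11.39) against 10.52 to 11.01 (median 10.87), a difference of 0.64, which was 0.40 within the largest spike-in group. Mt1, its neighbour and relative, differed by 0.32 with overlapping sets, and by 0.11 within the largest spike-in group.

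Among the other listed genes the largest difference above 0 was 0.61, for Plekhf1. Zbtb16, a zinc finger repressor, differed by 0.59 and Cdkn1a, an inhibitor of the cell cycle, by 0.57, both with overlapping sets. Nfkbia, which holds NF-κB in the cytoplasm, differed by 0.48, Klf15, a metabolic transcription factor, by 0.46 and Bcl6, a repressor, by 0.32. Sult1a1, a sulfotransferase, differed by 0.50, and Plekhf1, an endosomal protein, by 0.61 without overlap. The difference was not general to the list. Per1, a clock gene that glucocorticoid is known to raise, read 6.91 to 7.55 (median 7.29) on the high-score arrays and 6.90 to 7.51 (median 7.30) on the low-score arrays, a difference of 0.00. Gadd45g differed by -0.09. Dusp1, a phosphatase that is both a glucocorticoid target and an immediate early gene, was lower on the high-score arrays by 0.67.

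**Figure D2:**
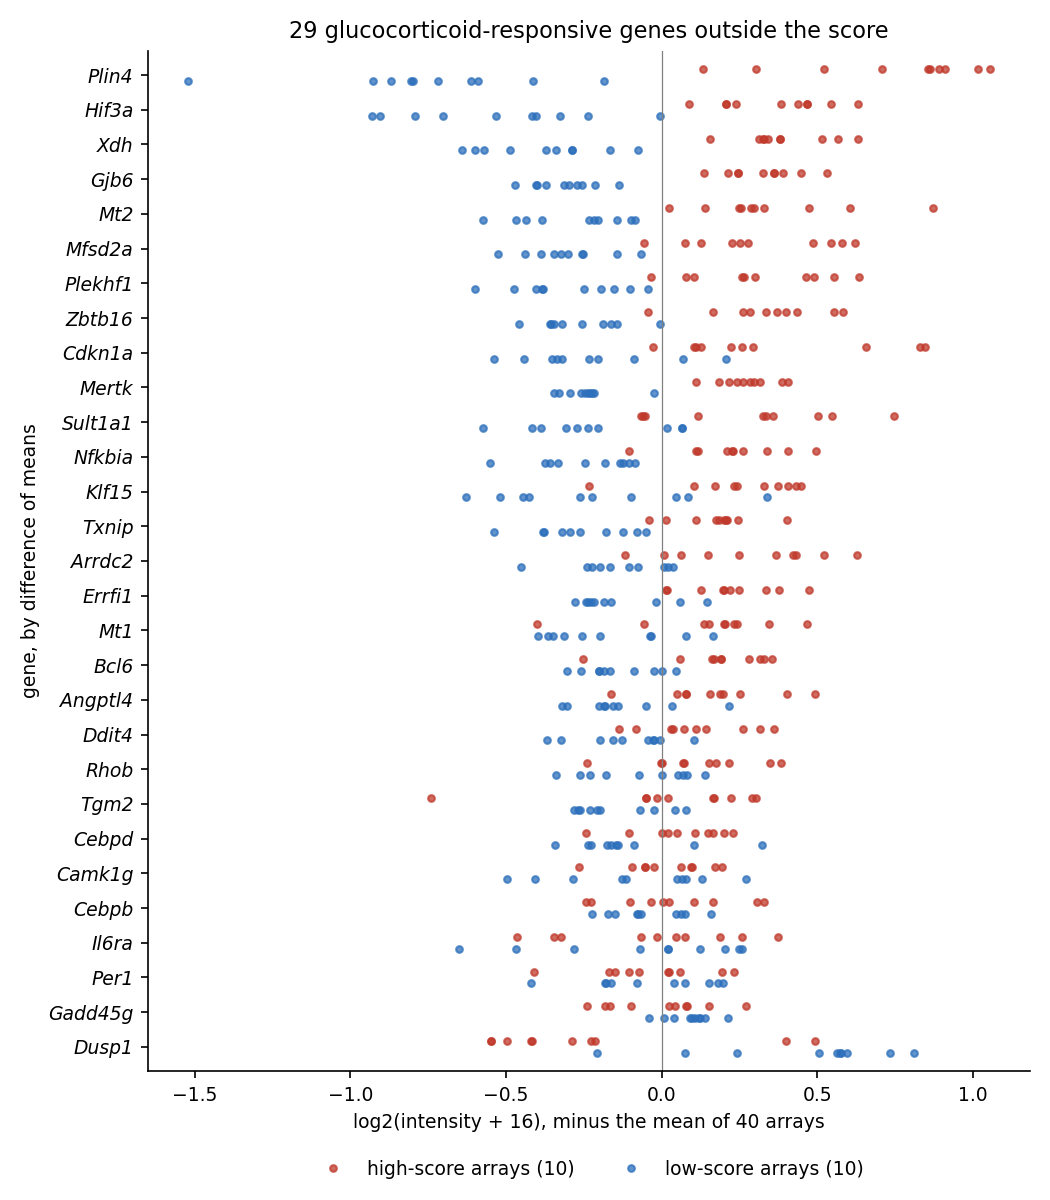
Level of 29 glucocorticoid-responsive genes outside the score on the 10 high-score arrays (red, upper row of each gene) and the 10 low-score arrays (blue, lower row), each point 1 array, as log2(intensity + 16) minus the gene's mean over 40 arrays. The 9 genes whose sets do not overlap include Plin4, Hif3a, Xdh and Gjb6 at the top, and Per1, Gadd45g and Dusp1 stand at the bottom.

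In the middle arrays 25 of the 29 listed genes had a slope above 0 on the score, beside 50.1% of all genes, and the median slope was 0.69 log2 per unit of score, against 0.00 over all genes. The list was chosen with earlier results of these data known, which the shares of all genes beside it do not allow for. An unadjusted p under 0.05 was reached by 9 of the 29, all with a positive slope, beside 5.32% of all genes in either direction, and by none with adjustment over all probe sets. They were Plin4 (3.32 ± 1.44), Xdh (2.95 ± 1.13), Cdkn1a (2.15 ± 0.88), Gjb6 (2.02 ± 0.65), Hif3a (1.99 ± 0.73), Klf15 (1.58 ± 0.68), Mertk (1.49 ± 0.59), Zbtb16 (1.21 ± 0.58) and Bcl6 (1.02 ± 0.36, all SE, n = 20). At their brightest probe sets Txnip (-0.24 ± 0.57) and Mt1 (0.22 ± 0.45) had slopes within 1 standard error of 0. The other tested probe set of Txnip had a slope of 1.25 (limma adjusted p = 0.918), so the sign for Txnip depended on the probe set. The median slope kept its sign with the spike-in group as a block (0.64), with the choroid plexus mean as a covariate (0.70) and without the 7 choroid-bright middle arrays (0.75). When each score gene was first standardised, which weights Tsc22d3 and Sgk1 less, the median slope was 0.17 per unit of that score. That unit is no longer log2, so the sizes 0.17 and 0.69 cannot be compared.

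**Figure D3:**
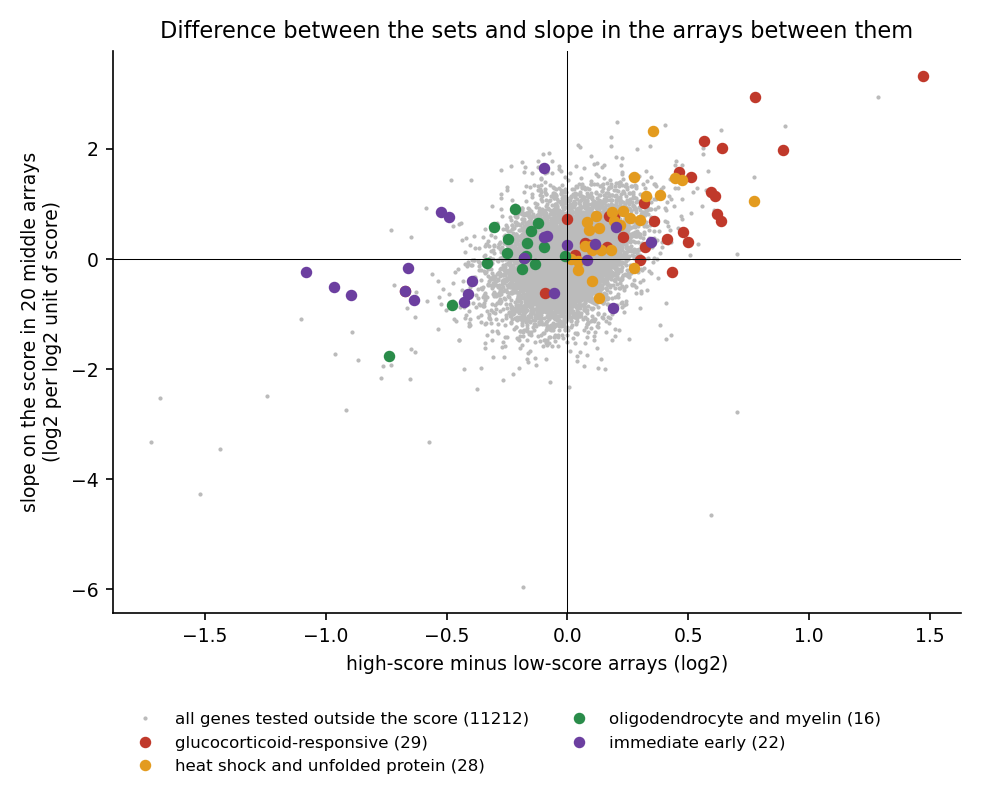
Each point is 1 gene at its brightest probe set: the x axis gives its difference between high-score and low-score arrays (log2) and the y axis its slope on the score in the 20 middle arrays, which neither set holds. Of the 29 glucocorticoid-responsive genes (red), 27 lie right of 0 and 25 above 0. The 28 heat shock and unfolded protein genes (orange) all lie right of 0, and the 16 oligodendrocyte genes (green) all lie left of 0 but divide on the y axis.

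Outside the lists, several other genes differed as widely. Gm19439, a predicted gene with no stated role here, read 7.97 to 8.85 (median 8.48) on the high-score arrays and 6.75 to 7.43 (median 7.26) on the low-score arrays, a difference of 1.29. It also had the smallest slope p of any gene outside the score in the middle arrays (2.95 ± 0.53, adjusted p = 0.134, limma, n = 20). Dio2, the astrocyte enzyme that turns thyroxine into active thyroid hormone, read 9.10 to 10.00 (median 9.59) against 8.55 to 9.04 (median 8.74), a difference of 0.77, and its slope in the middle arrays was 1.49 ± 0.47 (unadjusted p = 0.00445, limma, n = 20). Gm3515, also a predicted gene, and Smim3, a small membrane protein, differed by 0.63 and 0.61 without overlap. Rin2, an exchange factor of endosomal transport, differed by 0.56 without overlap and had a slope of 2.01 ± 0.43. Lifr, the receptor of leukaemia inhibitory factor, differed by 0.26, with a slope of 1.21 ± 0.26.

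Other genes were noticed after their values were seen. Etnppl, an astrocyte enzyme that breaks down phosphoethanolamine, read 6.07 to 6.79 (median 6.46) on the high-score arrays and 5.08 to 5.53 (median 5.28) on the low-score arrays at probe set 1431406_at, a difference of 1.18. At its brighter probe set the difference was 0.43. Homer1, a scaffold protein of the excitatory synapse with long and short transcript forms, differed sharply between its probe sets. At 1436387_at it read 9.46 to 10.69 (median 9.96) against 8.43 to 9.32 (median 8.87), a difference of 1.19, and at 1425671_at the difference was 0.69. At its brightest probe set, 1437363_at, it read 10.42 to 10.68 (median 10.54) against 10.34 to 10.57 (median 10.47), a difference of 0.08. The probe sets were not assigned to transcript forms here. Inhba, the activin A subunit, differed by 0.90 with overlapping sets, Rasd1, a small G protein first described as induced by dexamethasone, by 0.52 without overlap, and Crem, a cAMP-responsive transcription factor, by 0.42 without overlap.

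Of 12 measured genes of steroid receptors and corticosteroid handling, 7 were higher and 5 lower on the high-score arrays, with a median difference of 0.03, and 1 was higher without overlap beside 0.464% of all genes. Nr3c1, the glucocorticoid receptor, read 9.13 to 9.38 (median 9.23) on the high-score arrays and 9.30 to 9.93 (median 9.59) on the low-score arrays, and 9 of 10 high-score arrays lay below every low-score array. The difference was -0.35 ± 0.06 (SE) at its brightest probe set and between -0.30 and -0.27 at the other 4 tested. With arrays only centred on their median and the sets drawn anew it was -0.20. With no normalization and the sets drawn anew it was 0.36, below the shift of all genes. The slope of Nr3c1 in the middle arrays was -0.55 ± 0.43, an unadjusted p of 0.218 (limma, n = 20). Nr3c2, the mineralocorticoid receptor, differed by -0.09 and Hsd11b1, the enzyme that regenerates active corticosterone in the tissue, by 0.07, both with wide overlap. Crh, the peptide that starts the hormonal stress response in the hypothalamus and is also made by hippocampal interneurons, read 7.14 to 7.67 (median 7.39) against 6.23 to 7.13 (median 6.67), a difference of 0.70 without overlap, but its slope in the middle arrays was 0.10 ± 0.62.

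Genes of oligodendrocytes, the cells that make myelin, were lower on the high-score arrays. All 16 measured members of the list were lower, 2 of them without overlap beside 0.25% of all genes, with a median difference of -0.18. The mean of the list read 9.29 to 9.55 (median 9.45) on the high-score arrays and 9.59 to 9.78 (median 9.69) on the low-score arrays, without overlap. Opalin, a transmembrane protein of myelinating cells, read 7.34 to 7.87 (median 7.58) against 8.08 to 8.55 (median 8.34), a difference of -0.74, and was the only one of the 16 whose slope in the middle arrays had an unadjusted p under 0.05 (-1.76 ± 0.53). Aspa, which breaks down N-acetylaspartate, differed by -0.48 without overlap. Ugt8a, which makes galactolipids, differed by -0.33 and Cnp by -0.30, whereas Mbp, myelin basic protein, whose signal was near the top of the scale, differed by -0.01 there and by -0.30 to 0.02 at its other 7 probe sets.

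The myelin difference was not seen in every comparison. In the middle arrays 11 of the 16 genes had a slope above 0, with a median of 0.08 log2 per unit of score. With arrays centred on their median the list's difference was -0.06 where all genes shifted by 0.08. With no normalization it was 0.64 where all genes shifted by 0.65. Under both the score was recomputed and the sets were drawn anew. In tissue arrays, fewer cells of a type and less RNA per cell cannot be told apart.

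Immediate early genes, which neurons switch on within minutes of activity, were mostly lower on the high-score arrays, and widely scattered. Of 22 measured, 16 were lower and 6 higher, beside 49.3% of all genes higher, and 1 was lower without overlap, beside 0.25% of all genes. The median difference was -0.29. Fos read 8.01 to 9.85 (median 8.56) on the high-score arrays and 8.49 to 10.32 (median 9.95) on the low-score arrays, a difference of -1.08 ± 0.22 (SE). Egr2 differed by -0.96, Npas4 by -0.89 and Arc by -0.52, all with overlapping sets, and Junb by -0.63 without overlap. Within the largest spike-in group the differences were smaller, at -0.76 for Fos, -0.59 for Egr2, -0.58 for Npas4 and -0.56 for Junb. The median of the list was -0.21 there, and -0.23 with the spike-in group as a block. Of the 6 higher genes, Nptx2 differed by 0.35, Fosb by 0.20 and Bdnf, the growth factor that activity also induces, by 0.19. Egr3 differed by 0.12, Homer1 by 0.08 and Nr4a2 by 0.00. Homer1 stands here at its brightest probe set, and at 1436387_at it differed by 1.19. In the middle arrays 10 of the 22 slopes lay above 0, beside 50.1% of all genes, none had an unadjusted p under 0.05, beside 5.32% of all genes, and the slope of Fos was -0.24 ± 2.64. With no normalization and the sets drawn anew, the list's difference was 0.28, below the shift of 0.65 over all genes.

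Chaperones were higher on average. All 28 measured members of the list of heat shock and unfolded protein genes were higher on the high-score arrays, beside 49.3% of all genes, and 0 of them without overlap, beside 0.464%. The median difference was 0.18, and 0.14 with the spike-in group as a block. Hspa1b, the inducible heat shock protein of the Hsp70 family, read 9.39 to 10.80 (median 10.07) on the high-score arrays and 8.93 to 9.56 (median 9.45) on the low-score arrays, a difference of 0.77, with 9 of 10 high-score arrays above every low-score array. Hspb1, a small heat shock protein, differed by 0.47, and Sdf2l1 and Manf, proteins of the endoplasmic reticulum, by 0.45 and 0.38. In the middle arrays 22 of the 28 slopes were above 0, beside 50.1% of all genes, with a median of 0.65, and 1 had an unadjusted p under 0.05, a share below the 5.32% of all genes.

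Further genes lower on every high-score array fell into no list. Srebf1, a transcription factor of lipid synthesis, read 7.56 to 8.45 (median 8.14) on the high-score arrays and 8.55 to 8.83 (median 8.68) on the low-score arrays, a difference of -0.56. Pltp, a phospholipid carrier, differed by -0.58 and by -0.39 without the choroid-bright arrays, and Pcp4l1, a small relative of the calmodulin regulator Pcp4, by -0.52 and -0.28. Serpinb1a, a protease inhibitor, differed by -0.72 and Sytl2, a vesicle protein, by -0.53. Cxxc5, Trim59, Kcnj9 and Gng11 differed by -0.47 to -0.43. Of these 9 genes, 7 had slopes below 0 in the middle arrays, none with an unadjusted p under 0.05, and Cxxc5 and Kcnj9 had slopes above 0.

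Markers of other tissue and cells were compared because a dissection can take up more or less of them. The 7 measured choroid plexus genes were all lower on the high-score arrays, with a median difference of -0.96. The mean of that list read 6.14 to 7.20 (median 6.88) on the high-score arrays and 6.39 to 9.87 (median 6.93) on the low-score arrays, and 4 low-score arrays stood above all others. Without those 4 the median difference was 0.01. Clic6 differed by -1.68 with all arrays and -0.15 without them, and Folr1 by -1.52 and -0.13. Ttr, which encodes the thyroxine carrier transthyretin, differed by -1.10 and 0.27. The part of choroid plexus in the other differences was not tested beyond these values, and the glucocorticoid-responsive list differed by 0.38 without those arrays.

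Other cell type lists differed less. The astrocyte list, which holds Gjb6, read 10.18 to 10.39 (median 10.27) on the high-score arrays and 10.17 to 10.28 (median 10.22) on the low-score arrays, with a median difference of 0.03. Within it Gja1, connexin 43, differed by 0.14, Sox9, a glial transcription factor, by -0.24 and Gfap, the astrocyte filament protein, by 0.08 with wide overlap. The endothelial list differed by a median of -0.13, with Cldn5, a tight junction protein, at -0.24 and Slc2a1, the glucose carrier of the barrier, at 0.35. The microglial list differed by -0.02, the dentate granule neuron list by 0.04, the pyramidal neuron list by -0.01 and the interneuron list by 0.02.

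**Figure D4:**
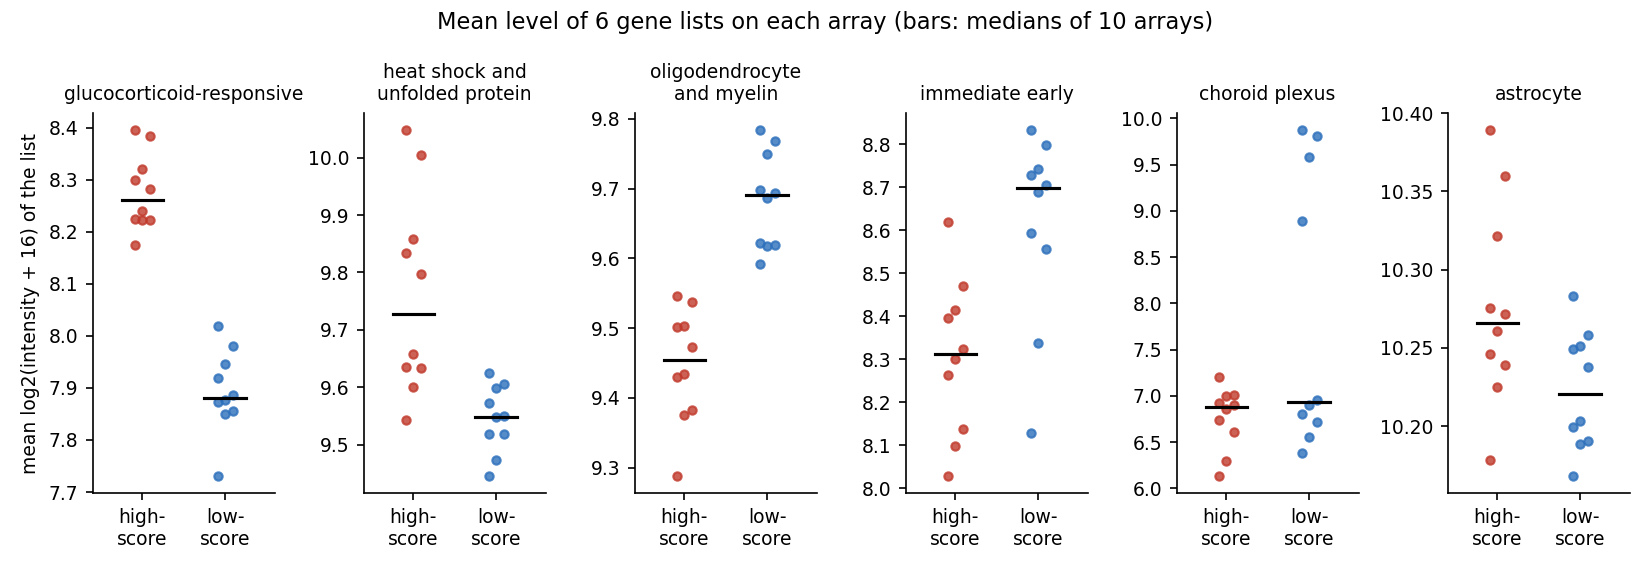
Mean log2(intensity + 16) of the measured genes of 6 lists on each of the 10 high-score arrays (red) and 10 low-score arrays (blue), with the median of each set as a bar. The vertical axes differ between panels. The sets do not overlap for the glucocorticoid-responsive and oligodendrocyte lists, and 4 low-score arrays stand apart for choroid plexus.

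Cognition was ranked from behaviour, which did not enter the choice of arrays. The score read 9.93 to 10.36 (median 10.17) in mice of high cognition (n = 5), 9.59 to 10.29 (median 9.96) in mice of medium cognition (n = 11, without sample 9) and 9.76 to 10.39 (median 9.93) in mice of low cognition (n = 8). The classes overlapped throughout, and the highest low cognition value stood above every other mouse of the 3 classes. Inconsistent cognition covered 9.66 to 10.42 (median 9.92, n = 14).

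A limma fit with 1 mean per class over 24 arrays and 22519 probe sets found none of the 35 measured score and listed genes past an adjusted p of 0.05 in any contrast. Between high and low cognition 28 of the 35 had a difference above 0, beside 51.5% of all genes, with a median of 0.15, and 7 had an unadjusted p under 0.05, all higher in high cognition, beside 10.5% of all genes in either direction. The lowest adjusted p was 0.356. Between high and medium cognition 31 of 35 were above 0, beside 51.7% of all genes, with a median of 0.11, and 7 had an unadjusted p under 0.05, beside 13.2% of all genes, with a lowest adjusted p of 0.155. Between medium and low cognition 21 of 35 were above 0, beside 49.4% of all genes, with a median of 0.02, and 0 had an unadjusted p under 0.05, beside 2.84% of all genes. Over all probe sets 2 passed the adjusted threshold between high and low (0.00888%), 8 between high and medium (0.0355%) and 0 between medium and low, where 766 had an unadjusted p under 0.05.

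The heat shock and unfolded protein genes, which were higher on the high-score arrays, had means above the other classes in high cognition for most members, and 3 of the high-score arrays and 0 of the low-score arrays came from high cognition. Between high and low cognition 25 of the 28 were above 0, with a median of 0.23, and 18 had an unadjusted p under 0.05, all higher in high cognition, beside 10.5% of all genes in either direction. Between high and medium cognition 24 of the 28 were above 0, with a median of 0.21, and 18 had an unadjusted p under 0.05, beside 13.2% of all genes. None passed the adjusted threshold in any contrast (limma). Their part in the differences of the score and its listed genes was not tested.

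Klf9 averaged 12.01 ± 0.12 in high cognition, against 11.74 ± 0.17 in medium and 11.77 ± 0.11 in low cognition (SD, n = 5, 11 and 8), and its difference from low of 0.24 ± 0.08 (SE) had an adjusted p of 0.356 in limma. Xdh averaged 6.37 ± 0.17 in high cognition, against 5.98 ± 0.38 in medium and 5.84 ± 0.38 in low cognition (SD), a difference from low of 0.53 ± 0.19 (SE, limma adjusted p = 0.359). Bcl6 and Klf15 differed from low cognition by 0.25 ± 0.09 and 0.36 ± 0.15 (SE), and Tsc22d3 by 0.29 ± 0.20, with adjusted p of 0.386, 0.424 and 0.65 in limma. Sgk1 averaged 10.76 ± 0.54 in high cognition, against 10.70 ± 0.29 in medium and 10.77 ± 0.22 in low cognition (SD), and the 5 high cognition mice spanned nearly its whole range. Fkbp5 differed from low cognition by 0.09 ± 0.15 (SE).

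**Figure D5:**
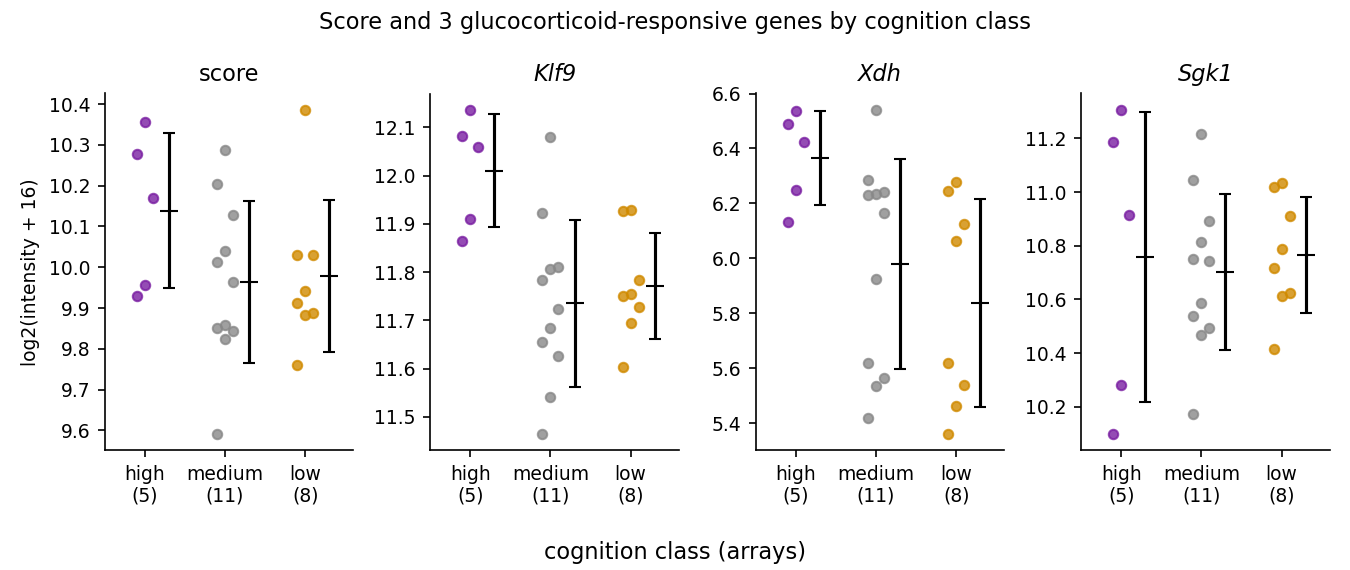
Score and levels of Klf9, Xdh and Sgk1 as log2(intensity + 16) in mice of high (5), medium (11) and low cognition (8), each point 1 mouse, with mean and SD beside the points. The classes overlap in every panel. The mean of high cognition is the highest for the score, Klf9 and Xdh, and for Sgk1 the 3 means lie between 10.70 and 10.77.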

How the data were processed

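Hippocampal RNA of 41 mice was measured on Affymetrix mouse arrays of 45101 probe sets. The deposited values are linear intensities (0.0112 to 13549), and array medians ran from 22.4 to 55.2. Partek and RMA are listed in the submitters' processing notes, and the deposited intensity values were not on a common scale between arrays. Their number limits the precision. Values were quantile-normalized over 41 arrays (limma 3.58.1, R 4.3.3), 16 was added and log2 taken, which understates the change of dim genes. The upper 50% of non-control probe sets by mean was kept (22519). Probe sets took symbols from the platform annotation; 34945 had 1 symbol, 932 several and 9160 none, and a gene stands at its brightest probe set with 1 symbol.

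The members and gene lists were chosen with earlier results of these data known. The score was the mean of the 6 named genes, and sets of 10 were compared by differences of means, ranges and overlap, with no test. Slopes on the score (20 middle arrays) and class means of cognition (24 arrays) were fitted with limma, with Benjamini-Hochberg adjustment over all kept probe sets at 0.05, and both fits were tested on simulated data. Spike-in groups came from Ward clustering of 45 spike-in probe sets into 3. Arrays with a choroid plexus list mean of 8 or more were called choroid-bright. Named genes were the score genes, up to 12 per direction with the largest differences without overlap, up to 4 per list by size of difference, up to 5 per direction by slope p, and fixed receptor and marker genes; Homer1, Etnppl, Crem, Inhba and Rasd1 were added after their values were seen, and fewer are printed than the rule allows. Alternatives changed normalization, offset (1 or 50), filter, block, score, set size and arrays. Where normalization, offset, score genes or the arrays ranked changed, the score was recomputed and the sets and middle arrays were drawn anew.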

Additional observations from a re-analysis of the deposited data

Results flagged for a closer look

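Some values stood far from the rest of their set, with a gap to the nearest array that was large against the set's range. Of 204 sets of values examined 14 did so, where chance gives about 1 in 20; the sets share arrays, so they are not independent. The gap is given as a share of the range.

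Low cognition sample 5, a high-score array with the lowest median intensity of the series (22.4), gave 8 of the 14. It was apart from the other high-score arrays in Bcl6 (8.53 against a nearest value of 8.84, gap 0.514), Gm3515 (7.88 against 7.37, gap 0.611), Pcp4l1 (7.65 against 7.84, gap 0.612), Gja1 (11.85 against 11.75, gap 0.471), Dsp (9.59 against 9.11, gap 0.521), C1ql2 (8.45 against 8.71, gap 0.472) and Etnppl at its brighter probe set (8.93 against 8.60, gap 0.510). It was also apart from the other low cognition mice in the score (10.39 against 10.03, gap 0.568).

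Inconsistent cognition sample 9 was apart from the other low-score arrays in Mertk (8.72 against 8.53, gap 0.601), Inhba (6.98 against 6.50, gap 0.613) and Sox2, a stem cell factor (9.17 against 9.47, gap 0.613). Medium cognition sample 2 was apart from the other low-score arrays in Nr3c1 (9.93 against 9.63, gap 0.472), and medium cognition sample 12 from the other high-score arrays in Klf15 (7.39 against 7.73, gap 0.497). Among the 5 high cognition mice, sample 1 was apart in Tsc22d3 (10.33 against 9.70, gap 0.770).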

How the results depend on the processing

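Under another normalization the score was recomputed and the sets were drawn anew, so the arrays compared can differ from those above. With no normalization between arrays all genes shifted by 0.65 between those sets, and 14492 probe sets were higher without overlap and 0 lower. The glucocorticoid-responsive, heat shock and clock lists differed by 0.89, 0.75 and 0.73. The immediate early, oligodendrocyte and choroid plexus lists differed, with the sign turned, by 0.28, 0.64 and 0.11. The 12 genes named as lower without overlap also turned sign there (Opalin 0.29, Serpinb1a 0.14, Junb 0.061, Pltp 0.42, Srebf1 0.51, Sytl2 0.35, Pcp4l1 0.46, Aspa 0.32, Cxxc5 0.47, Trim59 0.49, Kcnj9 0.45, Gng11 0.31), all below that shift. The median high minus medium cognition difference was -0.024, where all genes shifted by -0.15. With arrays centred on their median, 1 probe set was lower without overlap, and the oligodendrocyte and clock lists differed by -0.062 and 0.17.

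Probe sets higher and lower without overlap numbered 165 and 166 with the spike-in group as a block, 143 and 98 without the choroid-bright arrays, 648 and 565 with 5 arrays per set, 12 and 3 with 13, 50 and 27 with the score without Pdk4, and, chosen after seeing the data, 444 and 374 within the largest spike-in group and 153 and 137 without the second. With fewer arrays per set, sets overlap less by construction. The lower count was 19, 25, 25 and 27 with the score without Sgk1, Fkbp5, Tsc22d3 or Fam107a, 15 with all probe sets of the score genes and 28 with 1 probe set per gene. Leaving out each array in turn gave 77 to 102 higher and 45 to 62 lower.

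The glucocorticoid-responsive list differed by 0.32 with the brightest 25% of probe sets, 0.55 with 5 arrays per set and 0.32 between the highest and lowest scores of the largest spike-in group, 7 arrays each. Within that group the oligodendrocyte list differed by -0.29 and the clock list by -0.0049 (0.017 between upper and lower parts by score, 0.017 with medium cognition sample 9 put back). The choroid plexus list differed by 0.015 without the choroid-bright arrays.

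Slopes outside the score genes passed the adjusted threshold for 12 probe sets with centred arrays and 7354 with no normalization, where the median slope of all probe sets was 0.27 and 0.75, 11 with the score without Sgk1, 1 with the brightest 25%, 1 with medium cognition sample 9 put back and 2240 over all 40 arrays, which hold the sets.

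No cognition contrast called a member under any alternative. The median medium minus low difference, 0.02, was -0.0084 with medium cognition sample 9 put back and -0.0052 with inconsistent cognition sample 2, whose labels contradict each other, moved to medium, and -0.029 to 0.049 leaving out each array, turning sign without low samples 1 (-0.0016), 7 (-0.029) or 8 (-0.013) and medium samples 3 (-0.0025) or 4 (-0.00030). High minus low ran from 0.11 to 0.19 and high minus medium from 0.07 to 0.15 leaving out each array. Same-numbered arrays did not deviate together (correlations -0.13 to 0.10; 1 of 21 correlated best with its own number), and the replicate block gave 0 calls, with medians of 0.12 (high minus low), 0.08 (high minus medium) and 0.04 (medium minus low). Of 6048 values of 144 named genes under the alternatives 155 turned sign, 60 of them with no normalization, 11 with centred arrays and 26 leaving out 1 array, and 210 moved by more than the spread between arrays. Causes were not tested.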

Other observations

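Of 18 measured clock genes, 12 were higher on the high-score arrays, beside 49.3% of all genes, and 0 without overlap, beside 0.464%, with a median difference of 0.07. Per3 read 6.64 to 7.08 (median 6.89) on the high-score arrays and 6.35 to 6.75 (median 6.54) on the low-score arrays, a difference of 0.36. Per2, its relative in the clock's negative arm, differed by 0.29, whereas Dbp, a clock output factor, differed by -0.29. In the middle arrays 12 of the 18 had a slope above 0, beside 50.1% of all genes, and 2 had an unadjusted p under 0.05, beside 5.32%. Of 18 measured genes of insulin signalling, FoxO factors and fuel use, 14 were higher on the high-score arrays, beside 49.3% of all genes, with a median difference of 0.08, and Foxo3, a transcription factor that insulin restrains, differed by 0.27. The labels used here give no time of day of sampling.

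Of 9 measured neurogenesis genes, 4 were higher and 5 lower on the high-score arrays, with a median difference of -0.01. Sox2, of neural stem cells, differed by -0.46, Dcx, of young neurons, by -0.17 and Sox11, of young neurons too, by 0.27, with a slope in the middle arrays of 1.49 ± 0.69 (SE). Of 12 cholesterol synthesis genes 11 were lower and 1 higher on the high-score arrays, beside 49.3% of all genes higher, with a median difference of -0.06. Nsdhl, one of them, had one of the lowest slope p-values below 0 in the middle arrays (-1.08 ± 0.26, SE). Dentate granule neurons, the main cells of one hippocampal field, gave Dsp, a junction protein, at 0.45 and C1ql2, a synaptic organiser, at -0.30, which was 0.039 with medium cognition sample 9 put back.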
